A study of Mus musculus with 18 samples.

Results

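Colonic transport and sensing of short-chain fatty acids was followed through 10 genes, matched by gene symbol among the 56748 genes of the deposited expression table. They encode the monocarboxylate carriers Slc5a8, Slc16a1, Slc16a3 and Slc16a4, the carrier chaperone Bsg, the receptors Ffar2, Ffar3, Hcar1 and Hcar2, and the acetate-activating enzyme Acss2. All 10 symbols were found, each in 1 row. RNA sequencing had been run on mouse colon organoids, which are epithelial cultures without stroma or immune cells, in 18 libraries. Organoids were derived from the distal, mid or proximal colon and, 3 days after passaging, were kept in differentiation medium or in control medium. ENR supplemented with Wnt3a-conditioned medium served as the control and holds organoids in a proliferative state. Each of the 6 groups (distal, mid and proximal in differentiation medium, and distal, mid and proximal in control medium) had 3 libraries. The labels do not say whether the 3 are separate animals, so the p-values measure only the spread between these samples, which may be technical. Strain, sex and age of the donor mice are not given in the sources used here.

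Short-chain fatty acids are made by colonic bacteria from fibre, and butyrate is a main fuel of the differentiated colonocyte. They enter the epithelium through the sodium-coupled carrier Slc5a8 and through proton-coupled carriers of the Slc16a family, the best known of which need the glycoprotein Bsg to reach the cell surface. Inside the cell butyrate is oxidised in mitochondria and acetate is joined to coenzyme A, while G protein-coupled receptors on epithelial, enteroendocrine and immune cells read the acids from outside. Slc5a8 and Hcar2 also handle nicotinic acid, the metabolite named in the title of the study.

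Expression is given in FPKM, which corrects fragment numbers for gene length and library size, so that levels of different genes can be compared per length. Recovered depth was 12827751 to 19938198 reads in the differentiation libraries and 13090322 to 18504587 reads in the control libraries. Genes with at least 1 FPKM in at least 3 libraries were tested, 12896 in all, and a gene is said to have risen or fallen only where its adjusted p was below 0.05 (limma on log2(FPKM + 1), Benjamini-Hochberg over all tested genes). Slc5a8, Slc16a1, Slc16a3, Bsg and Acss2 were tested. Slc16a4, Ffar2, Ffar3, Hcar1 and Hcar2 reached 1 FPKM in 0 libraries and were not. The library size behind the FPKM was 0.757 to 1.04 times the summed reads in differentiation libraries and 1.15 to 1.20 times in control libraries. Rescaling to summed reads therefore moved the median log2 fold change of all genes between media to -0.35, -0.34 and -0.26 in distal, mid and proximal organoids. With that scaling 2360 genes rose and 6197 fell in distal organoids, against 4074 and 4036 as deposited. In mid organoids 2434 rose and 6098 fell with that scaling, against 4065 and 4122 as deposited, and in proximal organoids 2371 and 5260, against 3565 and 3373 as deposited. Scaling by trimmed means of the ratios between libraries (TMM) stayed close to the deposited counts. There 4029 rose and 4088 fell in distal, 4093 and 4141 in mid, and 3507 and 3446 in proximal organoids. The library size behind the FPKM, relative to summed reads, already followed the TMM factor. These were 0.757 and 0.777 in the first distal differentiation library, and 1.20 and 1.19 in the second distal control library. The closeness of the counts is therefore no independent check of the deposited scaling.

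Upstream windows are shown for the 4 tested genes that have one in the RefSeq table (build GRCm38.p6, while gene positions in the expression table are on mm39) and rose in at least 1 region. Bsg, which also rose, is not shown. Each line holds the 250 bases before the annotated start, 5′ to 3′ on the gene's strand, which is the plus strand for all 4. Capitals mark the GC box, GGGCGG or its reverse complement CCGCCC, and in Slc16a1 also the palindromic E-box CACGTG, both searched on both strands.
Slc5a8, chr10:88885742-88885991: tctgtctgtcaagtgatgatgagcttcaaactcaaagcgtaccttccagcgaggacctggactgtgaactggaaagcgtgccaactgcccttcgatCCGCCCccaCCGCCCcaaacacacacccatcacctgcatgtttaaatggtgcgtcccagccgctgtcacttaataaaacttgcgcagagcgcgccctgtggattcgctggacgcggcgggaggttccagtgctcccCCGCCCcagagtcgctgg
Slc16a1, chr3:104638414-104638663: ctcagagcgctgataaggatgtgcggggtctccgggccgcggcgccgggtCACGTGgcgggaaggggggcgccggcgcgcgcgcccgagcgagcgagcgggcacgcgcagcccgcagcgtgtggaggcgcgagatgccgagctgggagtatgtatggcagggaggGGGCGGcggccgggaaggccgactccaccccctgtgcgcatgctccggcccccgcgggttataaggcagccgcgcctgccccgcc
Slc16a3, chr11:120948817-120949066: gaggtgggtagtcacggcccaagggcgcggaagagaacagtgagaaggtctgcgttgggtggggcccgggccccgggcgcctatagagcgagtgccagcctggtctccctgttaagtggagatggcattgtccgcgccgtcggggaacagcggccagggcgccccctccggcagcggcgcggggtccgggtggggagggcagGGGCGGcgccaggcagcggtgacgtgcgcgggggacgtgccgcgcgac
Acss2, chr2:155517793-155518042: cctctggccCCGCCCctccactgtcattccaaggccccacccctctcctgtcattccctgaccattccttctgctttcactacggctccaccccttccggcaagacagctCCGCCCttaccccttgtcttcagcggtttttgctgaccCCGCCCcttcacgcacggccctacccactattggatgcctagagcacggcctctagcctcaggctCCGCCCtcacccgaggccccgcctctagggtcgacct
Slc5a8 held 3 GC boxes, the nearest ending 13 bases before the start, Slc16a1 held 1 GC box and 1 E-box, Slc16a3 held 1 GC box and Acss2 held 4. None of these matches overlapped another. A GC box was present in 32.7% and an E-box in 6.02% of all 32851 windows of this length. The 4 windows were 58.8%, 76.4%, 73.6% and 64% G or C in the order printed, against a median of 52.4% over all windows. Windows existed for 8 of the 10 genes, and for Hcar2, as for Bsg, none was used. A TATA box (TATAAA), a sterol regulatory element (TCACNCCAC) and an HNF4 motif (CAAAGTCCA) were searched as well, and they occur in 12.4%, 1.05% and 0.384% of all windows. None of these letters was found in the 4 windows shown. A match is a description of the letters in the window.

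In differentiation medium the carriers of butyrate rose. Slc5a8 and Slc16a1 rose in all 3 regions, Slc16a3 and Acss2 rose in proximal organoids, and Bsg rose in distal organoids, while no tested member fell. In distal organoids 3 of the 5 tested members rose, where 31.6% of all tested genes rose and 31.3% fell. In mid organoids 2 of 5 rose, where 31.5% of all tested genes rose and 32% fell, and in proximal organoids 4 of 5 rose, where 27.6% rose and 26.2% fell. The median log2 fold change of the 5 was 0.76, 0.58 and 1.495 in distal, mid and proximal organoids, and the median of all tested genes was 0.003, 0 and -0.015. Rescaled to summed reads, 2, 2 and 4 of the 5 rose and 0 fell. Of all 12970 genes tested with that scaling, 2360, 2434 and 2371 rose and 6197, 6098 and 5260 fell. In bulk RNA, fewer cells of a type and less RNA per cell cannot be told apart.

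**Figure D1:**
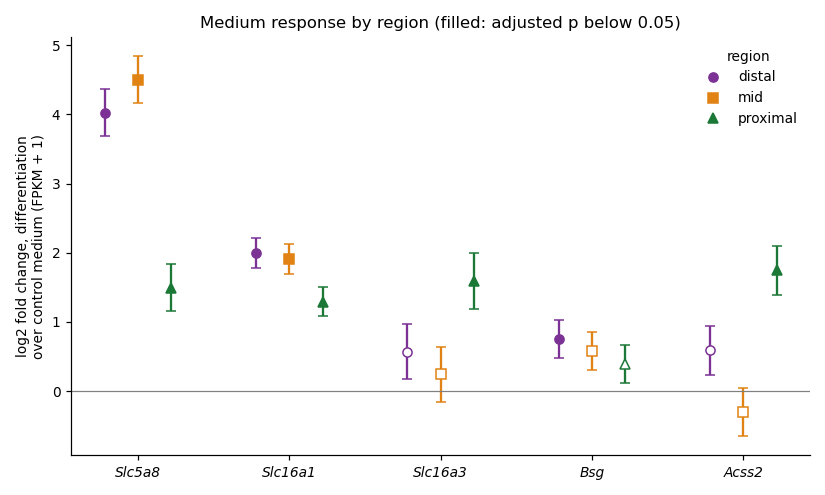
Log2 fold change of FPKM + 1, differentiation over control medium, with its standard error, for the 5 tested genes in distal, mid and proximal organoids (3 libraries per group). Slc5a8 lies at 4.02 and 4.498 in distal and mid organoids and at 1.49 in proximal organoids, while Slc16a3 and Acss2 have their filled symbols in proximal organoids.

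Slc5a8, the sodium-coupled carrier of the apical colonocyte membrane (ENSMUSG00000020062, mm39 chromosome 10, 88721854 to 88765377), had the widest span among the members. In distal organoids it stood at 23.0, 47.0 and 15.04 FPKM in differentiation medium and at 0.360, 0.861 and 0.692 FPKM in control medium. In mid organoids the values were 56.8, 41.4 and 25.3 FPKM in differentiation medium and 1.42, 0.556 and 0.480 FPKM in control medium. Proximal organoids had 3.27, 4.69 and 3.58 FPKM in differentiation medium and 1.05, 0.564 and 0.549 FPKM in control medium. Every differentiation library thus lay above every control library, and the proximal differentiation libraries lay between the control libraries and the distal and mid differentiation libraries without touching either. The group means were 44.4-fold, 50.2-fold and 5.33-fold higher in differentiation medium in distal, mid and proximal organoids. The log2 fold changes were 4.02 ± 0.34, 4.498 ± 0.34 and 1.49 ± 0.34 (SE, n = 3 each; adjusted p = 2.33e-07, 6.49e-08 and 0.0019, limma). They are understated by the added 1 FPKM, since the control values are low, and with 0.1 added they were 5.17, 5.55 and 2.30.

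The response of Slc5a8 differed between regions. In differentiation medium it averaged 28.3 ± 16.6 FPKM in distal and 3.85 ± 0.745 FPKM in proximal organoids (SD, n = 3; log2 difference 2.46 ± 0.34, adjusted p = 6.17e-05, limma). Mid organoids averaged 41.2 ± 15.7 FPKM, also above proximal (3.06 ± 0.34, adjusted p = 7.9e-06). Distal and mid libraries overlapped, and their difference of -0.60 ± 0.34 did not pass the test (adjusted p = 0.757). In control medium the 3 regions averaged 0.638 ± 0.255 (distal), 0.820 ± 0.524 (mid) and 0.721 ± 0.285 FPKM (proximal), and the region differences of -0.07 to 0.06 against proximal had adjusted p of 0.936 and 0.945. The medium response exceeded the proximal one by 2.53 ± 0.48 in distal (adjusted p = 0.00421) and by 3.003 ± 0.48 in mid organoids (adjusted p = 0.00114, limma interaction terms). Of the 5 tested members 1 was called in the distal-minus-proximal comparison, where 8.24% of all tested genes were. In a voom fit on recovered reads the distal-minus-proximal difference was 2.93, with an adjusted p of 0.0808.

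Slc16a1 is the proton-coupled carrier of lactate, pyruvate and butyrate (ENSMUSG00000032902, chromosome 3, 104545984 to 104565778), and per length it was the most abundant carrier in all 18 libraries. Distal organoids had 214, 286 and 183 FPKM in differentiation medium and 65.1, 52.3 and 50.1 FPKM in control medium. Mid organoids had 231, 201 and 200 FPKM in differentiation medium and 59.1, 54.4 and 51.9 FPKM in control medium. Proximal organoids had 60.4, 105 and 108 FPKM in differentiation medium and 45.1, 30.1 and 32.3 FPKM in control medium. The groups did not overlap in any region, although the first proximal differentiation library stayed below the first distal control library. Slc16a1 rose by 1.99 ± 0.22, 1.91 ± 0.22 and 1.30 ± 0.22 on the log2 scale in distal, mid and proximal organoids (SE, n = 3 each; adjusted p = 2.25e-06, 2.93e-06 and 0.000173, limma). Rescaled to summed reads the changes were 1.54, 1.48 and 0.98. Without the first proximal differentiation library, which is described with the cell markers, the proximal change was 1.56 (adjusted p = 9.43e-06).

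Within differentiation medium Slc16a1 was higher in distal than in proximal organoids (227 ± 52.6 against 91.0 ± 26.6 FPKM; SD, n = 3; log2 difference 1.33 ± 0.22, adjusted p = 0.00025, limma). It was also higher in mid organoids (211 ± 17.3 FPKM; 1.245 ± 0.22 above proximal, adjusted p = 0.000463). In control medium it averaged 55.8 ± 8.11 FPKM in distal, 55.1 ± 3.65 FPKM in mid and 35.8 ± 8.07 FPKM in proximal organoids. The control libraries of distal and mid organoids all lay above those of proximal organoids. The log2 differences from proximal were 0.64 ± 0.22 and 0.63 ± 0.22 with adjusted p of 0.0769 and 0.068, and in the voom fit of 0.0465 and 0.0426. Without the first proximal control library they were 0.81 and 0.80 (adjusted p = 0.0322 and 0.028). The distal and mid medium responses exceeded the proximal one by 0.70 ± 0.30 and 0.62 ± 0.30, which did not pass the test (adjusted p = 0.185 and 0.203).

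**Figure D2:**
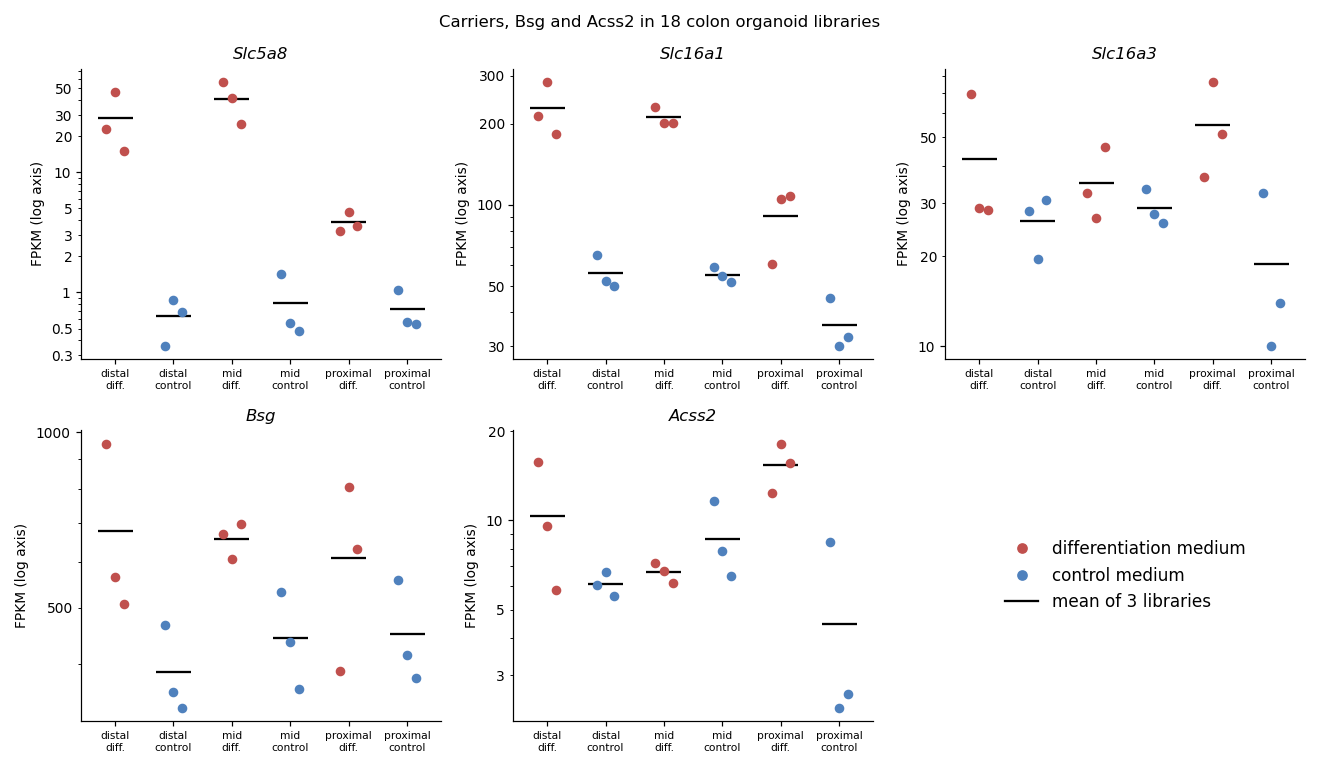
FPKM on a log axis in each of the 18 libraries for the 5 tested genes, with distal, mid and proximal groups side by side, differentiation medium left of control medium, and the mean of 3 libraries as a bar. Slc5a8 and Slc16a1 are higher in differentiation medium in each region, and the proximal control libraries of Slc16a3 and Acss2 split into 1 high and 2 low points.

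Slc16a3, the carrier best known for exporting lactate from glycolytic cells (ENSMUSG00000025161, chromosome 11, 120839306 to 120851694) rose in proximal organoids. Proximal organoids had 36.9, 76.5 and 51.1 FPKM in differentiation medium and 32.6, 10.05 and 14.0 FPKM in control medium. The lowest differentiation library lay just above the highest control library. Slc16a3 rose there by 1.59 ± 0.40 on the log2 scale (SE, n = 3; adjusted p = 0.00362, limma), and by 2.05 without the first control library (adjusted p = 0.000506). Distal organoids had 69.4, 29.0 and 28.6 FPKM in differentiation medium and 28.3, 19.6 and 30.8 FPKM in control medium, and mid organoids had 32.5, 26.7 and 46.3 FPKM in differentiation medium and 33.5, 27.7 and 25.8 FPKM in control medium. Those groups overlapped, and the differences of 0.57 ± 0.40 and 0.24 ± 0.40 did not pass the test (adjusted p = 0.227 and 0.615). The mid-minus-proximal difference in response was -1.35 ± 0.56 (adjusted p = 0.132), and -1.81 without the first proximal control library (adjusted p = 0.0284). Mid over proximal in control medium, the difference was 0.75 ± 0.40 (adjusted p = 0.249), and 1.21 without that library (adjusted p = 0.0402). From start to end, introns included, Slc16a3 shares 1879 bases with Csnk1d on the opposite strand, a kinase gene at 38.6 to 45.8 FPKM. The overlap of exons was not measured. The protocols describe preparation with and without strand information and do not say which was used. Reads in any shared exon bases therefore cannot be assigned with certainty.

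Slc16a4, a family member whose substrates are less settled (ENSMUSG00000027896, chromosome 3, 107198546 to 107219431), was near the limit of detection. Distal organoids had 7, 15 and 8 reads in differentiation medium and 27, 7 and 3 reads in control medium. Mid organoids had 5, 7 and 10 reads in differentiation medium and 13, 10 and 12 reads in control medium. Proximal organoids had 11, 9 and 12 reads in differentiation medium and 3, 7 and 10 reads in control medium. In FPKM the media overlapped in the distal and mid colon, and in the proximal colon they did not, at 0.171 to 0.185 FPKM in differentiation medium and 0.0497 to 0.154 FPKM in control medium. No library exceeded 0.343 FPKM. In a fit without the filter on low values 0 of its 13 comparisons were called, with a lowest adjusted p of 0.349 and 0 unadjusted p below 0.05.

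Summed over Slc5a8 and the 14 Slc16a genes in the table, carrier RNA was 260 to 402 FPKM in differentiation and 80.6 to 106 FPKM in control libraries of distal organoids. Mid organoids had 315 to 371 FPKM in differentiation medium and 88.9 to 104 FPKM in control medium, and proximal organoids had 124 to 223 FPKM in differentiation medium and 56.4 to 93.1 FPKM in control medium. The ranges of the media did not overlap in any region. Slc16a1 made up 47.2% to 71.1% of the sum in every library. Slc16a3 contributed 12.6% ± 6.27 in distal differentiation and 28.3% ± 5.08 in distal control libraries (SD, n = 3), and 10.5% ± 3.29 in mid differentiation and 30.2% ± 1.71 in mid control libraries. In proximal organoids its share was 30.1% ± 4.03 in differentiation and 25.6% ± 8.71 in control medium, with overlapping ranges. Slc5a8 contributed 5.78% to 11.7% in distal and 7.82% to 15.3% in mid differentiation libraries, 1.85% to 2.63% in proximal differentiation libraries, and 0.340% to 1.37% in all control libraries. These shares rest on the same FPKM values as the tests and were not tested themselves.

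**Figure D3:**
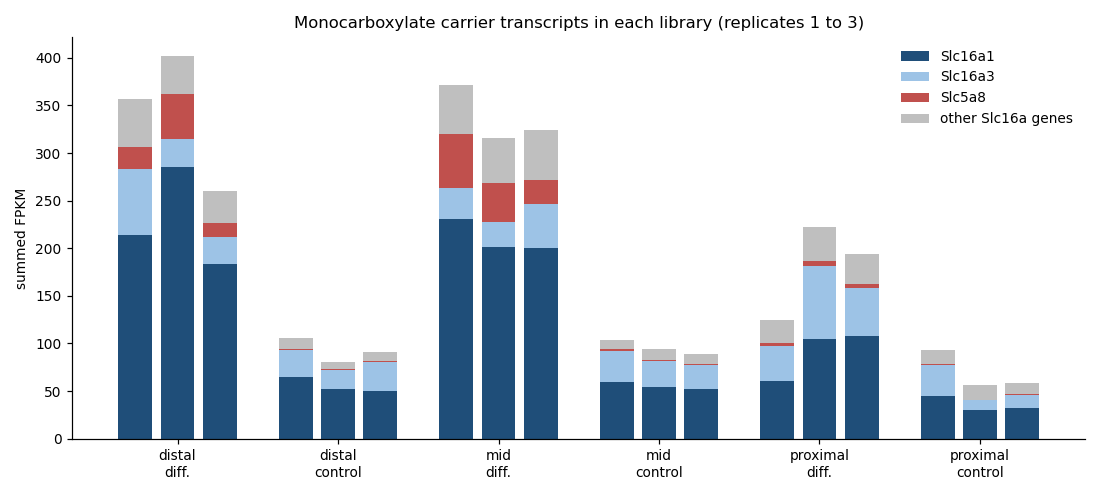
Stacked FPKM of Slc16a1, Slc16a3, Slc5a8 and the other Slc16a genes in each of the 18 libraries, grouped by region with differentiation medium left of control medium. Distal and mid differentiation libraries reach 260 to 402 FPKM with a visible Slc5a8 segment, and the proximal differentiation libraries reach 124 to 223 FPKM.

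Bsg, the glycoprotein that escorts Slc16a1 and Slc16a3 to the membrane (ENSMUSG00000023175, chromosome 10, 79540325 to 79547803), was the most abundant member throughout. Distal organoids had 957, 564 and 508 FPKM in differentiation medium and 467, 359 and 337 FPKM in control medium, without overlap. Bsg rose there by 0.76 ± 0.27 on the log2 scale (SE, n = 3; adjusted p = 0.0244, limma). That call was lost without the first distal differentiation library (0.48, adjusted p = 0.137) and when values were rescaled to summed reads (0.30, adjusted p = 0.256). It was also lost without the second or the third distal control library (adjusted p = 0.0651 and 0.0766), without the filter (0.0693) and with the other regions left out of the fit (0.0769). Mid organoids had 670, 606 and 695 FPKM in differentiation medium and 532, 437 and 363 FPKM in control medium, which did not overlap, yet the difference of 0.58 ± 0.27 had an adjusted p of 0.0748, and of 0.0145 with the other regions left out of the fit. Proximal organoids had 390, 806 and 630 FPKM in differentiation medium and 559, 414 and 379 FPKM in control medium, which overlapped (0.39 ± 0.27, adjusted p = 0.239). Without the first proximal differentiation library the proximal difference was 0.68 (adjusted p = 0.0381).

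Set against its clients, Bsg RNA was 2.52 ± 0.801 times the sum of Slc16a1 and Slc16a3 in distal differentiation and 4.72 ± 0.482 times in distal control libraries (SD, n = 3). The ratio was 2.68 ± 0.135 in mid differentiation and 5.25 ± 0.546 in mid control libraries, and 4.14 ± 0.258 in proximal differentiation and 8.56 ± 1.60 in proximal control libraries. It was lower in differentiation medium without overlap in each region, as a description with no test.

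The receptors were at or near the limit of detection. Ffar2, a receptor for acetate and propionate (ENSMUSG00000051314, chromosome 7, 30517773 to 30523200, minus strand), had 262 reads over the 18 libraries. Mid organoids had 25, 20 and 12 reads in differentiation medium and 31, 24 and 45 reads in control medium. Distal organoids had 13, 4 and 15 reads in differentiation medium and 16, 1 and 4 reads in control medium. Proximal organoids had 17, 5 and 13 reads in differentiation medium and 9, 6 and 2 reads in control medium. The media overlapped in every region, while the mid control libraries all lay above the proximal control libraries, at 0.527, 0.439 and 0.826 FPKM in mid against 0.207, 0.0995 and 0.0428 FPKM in proximal organoids. In the fit without the filter this was the 1 of 13 comparisons in which Ffar2 was called (log2 difference 0.51 ± 0.13, adjusted p = 0.0362, limma). In a voom fit of genes with at least 10 reads it was 2.43 ± 0.73 (adjusted p = 0.0396). Ffar2 is not part of the counts over the 5 tested members.

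Ffar3, a receptor for propionate and butyrate that lies 30554 bases from Ffar2 on the same strand (ENSMUSG00000019429, chromosome 7, 30553755 to 30555603), had 6 reads in all. Of these 5 were in 1 proximal differentiation library and 1 in a mid differentiation library. Hcar1, the lactate receptor (ENSMUSG00000049241, chromosome 5, 124014799 to 124018083, minus strand), had 3 reads, 1 in a proximal differentiation and 2 in a proximal control library. Its neighbour Hcar2, at a distance of 11236 bases on the same strand, is the receptor for nicotinic acid, butyrate and 3-hydroxybutyrate (ENSMUSG00000045502, chromosome 5, 124001633 to 124003562). Hcar2 had 66 reads, of which 2, 1 and 3 were in distal differentiation and 20, 3 and 7 in distal control libraries. Mid organoids had 4, 0 and 5 reads in differentiation medium and 4, 6 and 4 reads in control medium. Proximal organoids had 0, 1 and 0 reads in differentiation medium and 5, 0 and 1 reads in control medium. The reads were scattered over 14 libraries, and the highest value was 0.510 FPKM in the first distal control library. Without the filter 0 of 13 comparisons were called for each of the 3 genes (limma), with lowest adjusted p of 0.236, 0.646 and 0.144 for Ffar3, Hcar1 and Hcar2. Only Hcar2 had an unadjusted p below 0.05, in 1 comparison. A difference in these 3 receptors was not detectable at this depth.

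**Figure D4:**
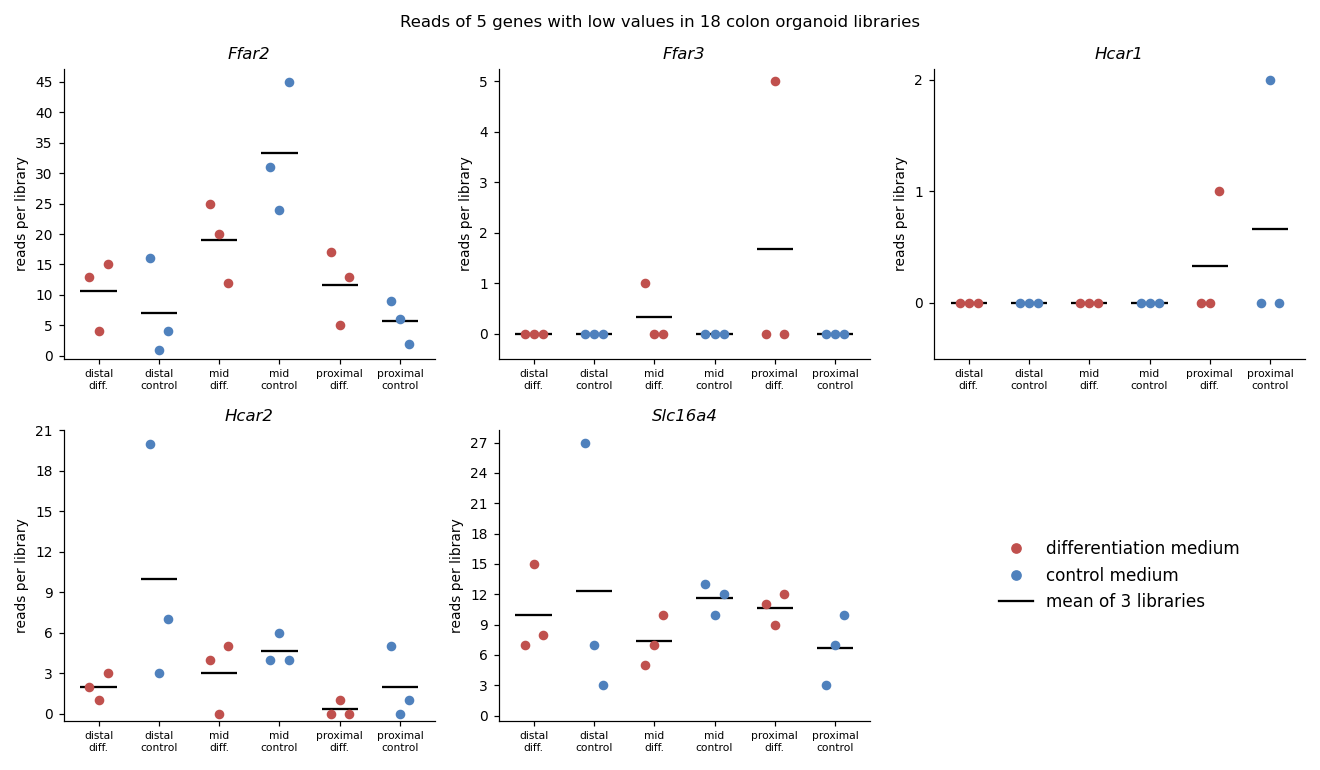
Recovered reads per library for Ffar2, Ffar3, Hcar1, Hcar2 and Slc16a4, with the mean of 3 libraries as a bar and differentiation medium left of control medium in each region. Ffar2 is highest in the mid control libraries at 24 to 45 reads, and Ffar3 and Hcar1 are at 0 in most libraries.

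Acss2, which makes acetyl-CoA from acetate in cytosol and nucleus (ENSMUSG00000027605, chromosome 2, 155359868 to 155427644), rose in proximal organoids. These had 12.4, 18.2 and 15.7 FPKM in differentiation medium and 8.45, 2.34 and 2.60 FPKM in control medium. The media did not overlap, and the first control library lay apart from the other 2. The log2 fold change was 1.74 ± 0.35 (SE, n = 3; adjusted p = 0.000759, limma), and 2.23 without that library. Distal organoids had 15.7, 9.61 and 5.84 FPKM in differentiation medium and 6.04, 6.71 and 5.58 FPKM in control medium, and mid organoids had 7.16, 6.75 and 6.14 FPKM in differentiation medium and 11.6, 7.89 and 6.51 FPKM in control medium. Both overlapped, and the differences of 0.59 ± 0.35 and -0.30 ± 0.35 did not pass the test (adjusted p = 0.156 and 0.475). Without the third distal differentiation library the distal difference was 0.91 (adjusted p = 0.0393).

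The medium response of Acss2 was lower in mid than in proximal organoids by -2.04 ± 0.50 on the log2 scale (adjusted p = 0.0151, limma interaction term). Acss2 was therefore 1 of 2 members called in the mid-minus-proximal comparison, beside Slc5a8, where 12% of all tested genes were called. The moderated F test for any difference between the 3 regions called the same 2 members (adjusted p = 0.00175 for Slc5a8 and 0.0395 for Acss2), where 9.59% of tested genes were called. Over the alternatives the adjusted p of that F test ran from 0.000492 to 0.0668 for Slc5a8 and from 0.00243 to 0.113 for Acss2, so that each call was lost under some of them. In differentiation medium Acss2 averaged 6.68 ± 0.513 FPKM in mid and 15.4 ± 2.90 FPKM in proximal organoids (SD, n = 3). Their log2 difference was -1.08 ± 0.35 (adjusted p = 0.0301), and it no longer passed without the filter (adjusted p = 0.0678) or without any 1 of 5 of the 6 libraries compared (adjusted p = 0.0615 to 0.0946). In control medium the mid-against-proximal difference was 0.96 ± 0.35 (adjusted p = 0.0839), and it was 1.45 without the first proximal control library (adjusted p = 0.00363). Without that library the distal-against-proximal difference in control medium was 1.03 (adjusted p = 0.0306), against 0.55 ± 0.35 with it (adjusted p = 0.39). The distal-minus-proximal difference in response was then -1.64 (adjusted p = 0.0177), against -1.16 ± 0.50 with it (adjusted p = 0.175). From start to end, introns included, Acss2 shares 22544 bases with Gss on the opposite strand, a glutathione synthetase gene at 23.3 to 42.9 FPKM. The gene length behind the Acss2 FPKM is 10163 bases, and the overlap of exons was not measured.

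Between regions, Slc5a8 and Slc16a1 set proximal organoids apart in differentiation medium. Distal over proximal in differentiation medium, 2 of 5 were higher (Slc5a8 and Slc16a1), where 15.6% of all tested genes were higher and 14.3% lower. Mid over proximal, the same 2 were higher, against 15.6% of genes, and Acss2 was lower, against 13.7%. Distal against mid, 0 of 5 were called in differentiation medium (0.69% of genes) and 0 in control medium (0.326%), with 0 unadjusted p below 0.05 in either (limma) and 0 calls in the voom fit. In control medium 0 of 5 were called distal against proximal, where 10.5% of genes were called, and 0 of 5 mid against proximal, where 13.3% were. At an unadjusted p below 0.05 these were 1 (Slc16a1) and 2 (Slc16a1 and Acss2), and the voom fit on all tested genes called the same 1 and 2. No member was called for the distal-minus-mid difference in medium response, where 0.031% of genes were, with 0 unadjusted p below 0.05 (limma) and 0 calls in the voom fit.

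Ordered by group mean, Slc5a8 ran mid, distal and proximal differentiation, then mid, proximal and distal control. Only the steps on either side of the proximal differentiation group separated libraries without overlap. For Slc16a1 the order was distal, mid and proximal differentiation, then distal, mid and proximal control. Its neighbours without overlap were mid and proximal differentiation, and mid and proximal control. All neighbouring groups overlapped for Slc16a3, Bsg and Acss2.

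The protein-coding genes most like Slc5a8 over the 18 libraries, by root mean square difference of mean-centred log2(FPKM + 1) among 11034 tested genes, were Ptk6, a tyrosine kinase (0.395), Acer1, a ceramidase (0.421), and Slc26a2, a sulfate transporter (0.427). Ptk6 averaged 11.9, 14.9 and 1.79 FPKM in distal, mid and proximal differentiation medium and 0.116, 0.129 and 0.0412 FPKM in control medium. Slc26a2 averaged 293, 344 and 61.9 FPKM in differentiation medium and 20.3, 23.5 and 15.3 FPKM in control medium, with the same order of regions in differentiation medium as Slc5a8. These genes were picked for likeness to Slc5a8 in the same values, so a shared order is no separate finding. Closest to Slc16a1 were Parm1, a mucin-like membrane protein (0.182), Prss32, a serine protease (0.208), and Plcl2, a phospholipase C-like protein (0.211). Parm1 averaged 153, 152 and 64.4 FPKM in distal, mid and proximal differentiation medium and 38.6, 39.3 and 22.05 FPKM in control medium. The other 3 tested members spanned less than 2 log2 units between group means, the smallest span set for this search.

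Among 14 other carriers and chaperones, 5 were tested. In differentiation medium 2 rose and 1 fell in distal organoids, and 2 rose and 2 fell in both mid and proximal organoids. These shares of 5 stand beside 31.6% of all tested genes rising and 31.3% falling in distal, 31.5% and 32% in mid, and 27.6% and 26.2% in proximal organoids. Rescaled to summed reads, 2 rose and 3 fell in distal and in mid organoids, and 2 rose and 2 fell in proximal organoids. Of all 12970 genes tested with that scaling, 2360, 2434 and 2371 rose and 6197, 6098 and 5260 fell in distal, mid and proximal organoids. Abcg2, an efflux pump of the apical membrane, averaged 48.6, 50.3 and 6.94 FPKM in distal, mid and proximal differentiation medium and 1.33, 1.36 and 0.122 FPKM in control medium. It rose by 4.37 ± 0.21, 4.43 ± 0.21 and 2.79 ± 0.21 on the log2 scale (n = 3 each, adjusted p = 9.93e-10, 6.93e-10 and 1.28e-07, limma), and the distal response exceeded the proximal one by 1.58 ± 0.29 (adjusted p = 0.00366). Slc16a5, a further family member, averaged 36.5, 44.6 and 21.7 FPKM in differentiation medium and 1.26, 1.74 and 1.33 FPKM in control medium. It rose by 4.05, 4.06 and 3.30, and the distal-minus-proximal difference of 0.75 ± 0.38 did not pass the test (adjusted p = 0.252). Slc16a6, whose zebrafish homologue exports ketone bodies from liver, fell by 0.70, 0.79 and 1.39 on the log2 scale. The sodium-coupled carrier Slc5a12 and the alternative chaperone Emb, named after their values were seen, averaged at most 0.119 FPKM in any group.

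Most enzymes that oxidise butyrate and propionate rose in the values as deposited. Of 14 genes, all tested, 10, 9 and 10 rose and 0 fell in distal, mid and proximal organoids, with medians of 0.58, 0.56 and 0.71 on the log2 scale. Of all tested genes 31.6%, 31.5% and 27.6% rose and 31.3%, 32% and 26.2% fell. Rescaled to summed reads, 4, 5 and 9 of the 14 rose and 0, 0 and 2 fell. With that scaling 2360, 2434 and 2371 of all 12970 tested genes rose, and 6197, 6098 and 5260 fell. Hadh, which oxidises short hydroxyacyl-CoA, averaged 63.0, 68.8 and 55.5 FPKM in distal, mid and proximal differentiation medium and 19.0, 22.1 and 14.6 FPKM in control medium. Its log2 fold changes were 1.68 ± 0.19, 1.595 ± 0.19 and 1.87 ± 0.19 (n = 3 each, adjusted p = 3.32e-06, 4.71e-06 and 2.13e-06, limma). Acads, the short-chain acyl-CoA dehydrogenase that takes butyryl-CoA, rose by 0.64, 0.70 and 0.92. The thiolase Acaa2 rose by 1.29, 1.38 and 1.58, and Hadhb, a subunit of the trifunctional protein, by 1.22, 1.115 and 0.82. None of the 14 was called for a difference in response between distal and proximal or between mid and proximal organoids.

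**Figure D5:**
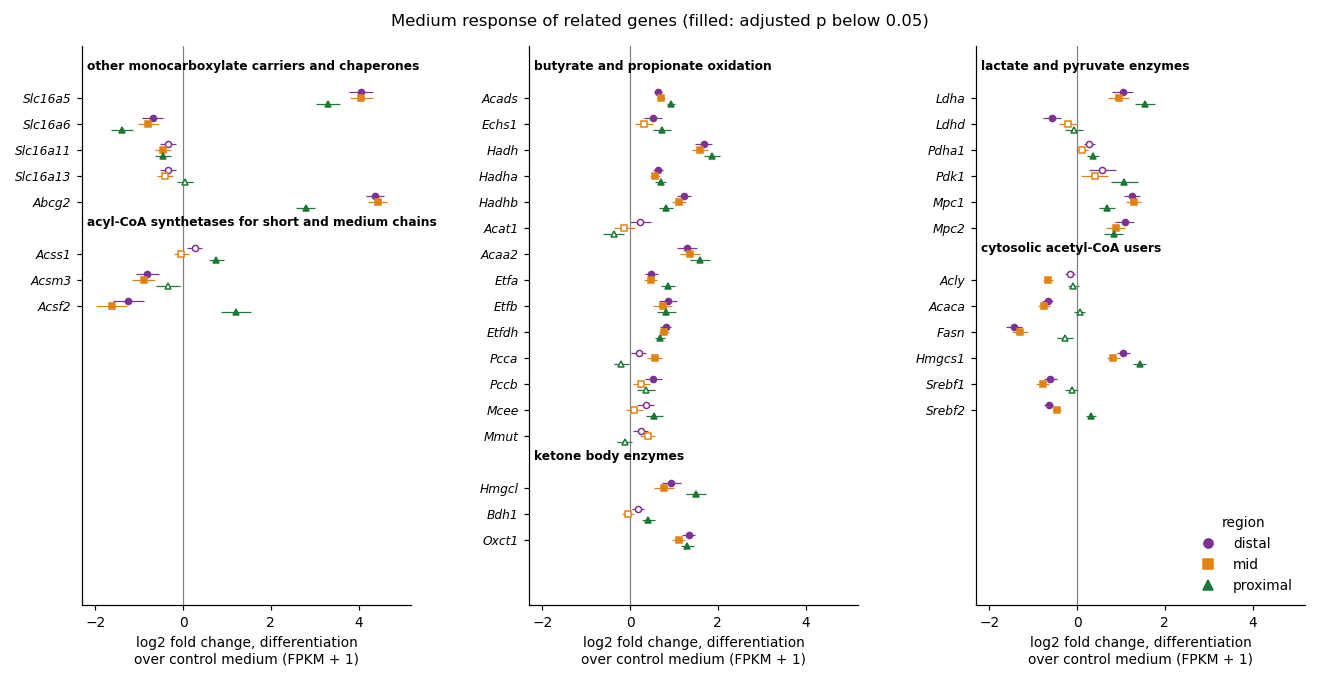
Log2 fold change of FPKM + 1, differentiation over control medium, with its standard error, for the tested genes of 6 related lists in distal, mid and proximal organoids (filled symbols have an adjusted p below 0.05). Slc16a5 and Abcg2 lie far to the right, the butyrate oxidation genes sit mostly right of 0, and Acsf2 lies on opposite sides of 0 in distal and proximal organoids.

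Of 8 other acyl-CoA synthetases 3 were tested, and 0 rose and 2 fell in distal organoids, 0 rose and 2 fell in mid organoids, and 2 rose and 0 fell in proximal organoids. With summed reads the mid count was 0 and 3, and the others stayed as they were. Beside these counts and those for acetyl-CoA below, 31.6%, 31.5% and 27.6% of all tested genes rose in distal, mid and proximal organoids. The shares that fell were 31.3%, 32% and 26.2%. Acsf2, a mitochondrial medium-chain synthetase, averaged 5.31, 6.46 and 49.0 FPKM in distal, mid and proximal differentiation medium and 14.7, 22.5 and 21.5 FPKM in control medium. It fell by 1.245 and 1.63 on the log2 scale in distal and mid organoids and rose by 1.21 in proximal organoids, and the distal response was lower than the proximal one by -2.46 ± 0.49 (n = 3 per group, adjusted p = 0.00542, limma). Of 6 genes that use or control cytosolic acetyl-CoA, 1 rose and 4 fell in distal organoids, 1 rose and 5 fell in mid organoids, and 2 rose and 0 fell in proximal organoids. With values rescaled to summed reads, 1 rose and 5 fell in distal, 1 rose and 5 fell in mid, and 1 rose and 2 fell in proximal organoids. For the rescaled counts of this list and the synthetases, the background was 12970 tested genes. Of these 2360, 2434 and 2371 rose and 6197, 6098 and 5260 fell in distal, mid and proximal organoids. Fasn, the fatty acid synthase, fell by 1.45 and 1.295 in distal and mid organoids and had a difference of -0.275 ± 0.18 in proximal organoids (adjusted p = 0.215). The distal-minus-proximal difference for Fasn was -1.17 ± 0.26 (adjusted p = 0.0114). Hmgcs1, of cholesterol synthesis, rose by 1.05, 0.83 and 1.425 in distal, mid and proximal organoids.

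Ketone body and lactate enzymes were measured because the carriers also move these acids. For comparison, 31.6%, 31.5% and 27.6% of all tested genes rose in distal, mid and proximal organoids, and 31.3%, 32% and 26.2% fell. Of 4 ketone body genes 3 were tested, and 2 rose and 0 fell in distal, 2 rose and 0 fell in mid, and 3 rose and 0 fell in proximal organoids. Rescaled to summed reads, 2, 1 and 2 rose and 0, 1 and 0 fell in distal, mid and proximal organoids. Oxct1, which uses ketone bodies, rose by 1.34, 1.11 and 1.30 on the log2 scale. Of 8 lactate and pyruvate genes 6 were tested, and 3 rose and 1 fell in distal, 3 rose and 0 fell in mid, and 5 rose and 0 fell in proximal organoids. After rescaling to summed reads, 3 rose and 1 fell in distal, 3 rose and 1 fell in mid, and 4 rose and 0 fell in proximal organoids. Beside the rescaled counts of both lists, 2360, 2434 and 2371 of 12970 tested genes rose, and 6197, 6098 and 5260 fell. Ldha, lactate dehydrogenase A, rose by 1.04, 0.945 and 1.55, and Mpc1, a subunit of the mitochondrial pyruvate carrier, by 1.255, 1.29 and 0.69.

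Of 5 further fatty acid and odorant receptors 1 was tested, the long-chain fatty acid receptor Ffar4, named after its values were seen because it was the only one. It averaged 27.7 ± 12.7 FPKM in proximal differentiation and 12.045 ± 0.541 FPKM in proximal control libraries (SD, n = 3; log2 fold change 1.03 ± 0.27, adjusted p = 0.0047, limma). In distal and mid organoids its differences were -0.15 ± 0.27 and 0.485 ± 0.27 (adjusted p = 0.647 and 0.127). Of 10 G proteins, arrestins and phospholipases through which such receptors signal, 7 were tested, and 4, 4 and 5 rose and 1, 1 and 1 fell in distal, mid and proximal organoids (3, 3 and 4 rose and 2, 2 and 1 fell with summed reads). Among all tested genes 31.6%, 31.5% and 27.6% rose and 31.3%, 32% and 26.2% fell in the values as deposited. With summed reads 2360, 2434 and 2371 of 12970 tested genes rose, and 6197, 6098 and 5260 fell. Gna11, a Gq-class subunit, rose by 1.97, 1.95 and 2.42, and Arrb2, a beta-arrestin, fell by 1.15, 0.93 and 0.55.

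Cell markers moved with the medium. The 8 epithelial and colonocyte markers were Krt20, Car1, Car4, Aqp8, Slc26a3, Vil1, Cdh1 and Epcam, and their total is called the colonocyte sum. All 8 averaged at least 1 FPKM in distal and mid differentiation libraries, and 6 did in proximal differentiation libraries. Their summed level was 17133 to 24022.5 FPKM in distal differentiation and 2236 to 2913 FPKM in distal control libraries. It was 18436 to 21975 FPKM in mid differentiation and 1910 to 2215 FPKM in mid control libraries, and 14105 to 24688 FPKM in proximal differentiation and 1023 to 1999 FPKM in proximal control libraries. All 8 rose in distal and mid organoids and 6 rose in proximal organoids (7, 6 and 6 after rescaling to summed reads). Beside these and the other marker counts, 31.6%, 31.5% and 27.6% of all tested genes rose in distal, mid and proximal organoids. The shares that fell were 31.3%, 32% and 26.2%. After rescaling to summed reads, 2360, 2434 and 2371 of 12970 tested genes rose, and 6197, 6098 and 5260 fell. Within differentiation medium 3 of the 8 were higher in distal and 4 in mid than in proximal organoids, where 15.6% of all tested genes were higher in each comparison. Between media the median log2 fold change of the 8 was 3.93, 4.01 and 1.25 in distal, mid and proximal organoids. All 4 goblet markers rose in each region, with median log2 fold changes of 3.68, 2.87 and 4.05 in distal, mid and proximal organoids. The 3 tested crypt markers and the 3 cycling markers fell in each region. The part of these cell types in the rise of Slc5a8 and Slc16a1 was not tested. In proximal differentiation medium the first library had a colonocyte sum of 14105 FPKM against 24658 and 24688 FPKM in the other 2, and a sum of 3 cycling markers of 36.8 FPKM against 2.64 and 4.76 FPKM. Its cycling sum lay within the 23.8 to 58.6 FPKM of the proximal control libraries. Without it the proximal changes were 1.58 for Slc5a8, 1.56 for Slc16a1, 1.84 for Slc16a3 and 1.88 for Acss2, all called (adjusted p = 0.00316, 9.43e-06, 0.00241 and 0.00101, limma).

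The first proximal control library, in which Slc16a3 and Acss2 were high, had a colonocyte sum of 1999 FPKM against 1133 and 1023 FPKM in the other 2, and a cycling sum of 58.6 against 31.5 and 23.8 FPKM. The part of these markers in those values was not tested. A set of 10 enteroendocrine markers, which label cells that carry Ffar2 in the mouse gut, summed to 87.5 to 142 FPKM in mid differentiation and 18.7 to 31.8 FPKM in mid control libraries, and to 1.38 to 3.45 FPKM in proximal control libraries. In distal control libraries they summed to 5.93 to 18.2 FPKM, also above the proximal control libraries, while Ffar2 differed by 0.01 ± 0.13 on the log2 scale between distal and proximal control libraries (adjusted p = 1, limma without the filter). Mid control libraries lay above distal control libraries in this sum and in Ffar2 (distal against mid -0.50 ± 0.13, adjusted p = 0.264, limma without the filter). Within mid organoids the sum was higher in differentiation medium while the Ffar2 reads overlapped. The part of these cells in the Ffar2 values was not tested. Of the other cells known for Hcar2 and Ffar2, the leukocyte marker Ptprc did not exceed 0.013 FPKM and the macrophage marker Lyz2 0.0389 FPKM, and 6 myeloid markers summed to 1.19 to 4.55 FPKM. Among the 6, Cd68 reached 3.43 FPKM, S100a8 2.53 FPKM and Csf1r 1.85 FPKM at most. The adipocyte markers Plin1 and Lep were at 0, Adipoq did not exceed 0.0578 FPKM, and Fabp4 did not exceed 0.374 FPKM. Tuft markers summed to at most 2.41 FPKM and fibroblast markers to at most 0.176 FPKM. Mitochondrial RNA took 3.99% to 5.57% of reads in distal and mid differentiation libraries, 2.46% to 2.79% in proximal differentiation libraries and 2.01% to 2.99% in control libraries. Its part in the carrier changes and in their differences between regions was not tested.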

How the data were processed

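RNA of 18 mouse colon organoid libraries was selected by poly-A tail, per the labels' protocols, which describe a strand-specific and an unstranded preparation and do not say which was used. The authors deposited FPKM per gene and library, per the file headers. HISAT2 2.0.5, featureCounts 1.5.0-p3 and mm39 are named in the submitters' processing notes. The annotation release is not stated. Beside these values the table holds 6 columns of the authors' group means, which were not used, and 0 value columns remained without a sample.

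Multiplied by gene length, all FPKM (100%) fell on whole multiples of 1 step per library within 0.001 of a read, which gave the reads behind them. FPKM are not counts, so log2(FPKM + 1) was fitted with limma 3.58.1 in R 4.3.3 (trend, 6 group means, all 18 libraries, two-sided). Interaction terms compared the medium response between regions, and a voom fit on the recovered reads was added after seeing the data. The voom fits used library sizes scaled by TMM. The planned count model was not run. Errors are SE of the fit or SD over 3 libraries. Alternatives changed the added constant, the filter, the scaling, the samples fitted and a block on replicate number, and left out each library. Same-numbered libraries deviated together (every correlation over 0.1) between media in distal organoids, at 0.118, 0.223 and 0.158, and between distal and mid organoids in control medium, at 0.177, 0.149 and 0.542. Between distal and proximal organoids in differentiation medium the correlations were negative, at -0.387, -0.149 and -0.222. The remaining comparisons each held a value below 0.1, some of them negative. Only the fit of the distal medium response was tested on simulated reads, in which no other group changed. The region comparisons and interaction terms were not tested that way.

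The members and related lists were chosen with earlier results of these data known. All members were named, and from the related lists called genes with large distal changes, up to 8 in each direction, with defining markers and the exceptions named as such. From the related lists 1 gene is not reported here. Python 3.11.15, pandas 2.3.3, numpy 2.4.6 and matplotlib 3.10.9 were used.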

Additional observations from a re-analysis of the deposited data

Results flagged for a closer look

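Slc5a8 was singled out because its response to differentiation medium, tested as an interaction, differed between regions. The response was larger in distal than in proximal organoids by 2.53 on the log2 scale and larger in mid than in proximal organoids by 3.003. Acss2 was singled out by the same kind of test, since its response was lower in mid than in proximal organoids, by -2.04 on the log2 scale.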

How the results depend on the processing

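Each fold change or difference of a single tested member was recomputed under the alternatives, which gave 990 values. Of these 959 stayed on the same side of the threshold, 14 lost a call and 17 gained one. Most of the comparisons were not called to begin with, so staying the same mostly means staying uncalled. The lost calls were Bsg between media in distal organoids, Acss2 mid against proximal in differentiation medium, and the distal-minus-proximal response of Slc5a8. The sign differed in 0 of the values called in either setting, while some differences that were not called changed sign, such as Slc16a3 in mid organoids (0.24, and -0.18 after scaling to summed reads). Distal over proximal in control medium, 0 members were called, and 1 was called after scaling to summed reads and 1 in the voom fit, with 0 to 2 when single libraries were left out. Mid over proximal in control medium, 0 were called, but 1 without the filter (Ffar2), 1 with the replicate block (Acss2), 1 when only the groups compared were fitted, 2 in the voom fit and 2 in the voom fit of genes with at least 10 reads, with 0 to 3 when single libraries were left out. For the distal-minus-proximal difference in response, 1 was called, and 0 in either voom fit, with 1 to 2 when single libraries were left out. For any difference between regions, 2 were called, but 1 without the filter and 1 in either voom fit, with 1 to 2 when single libraries were left out. Leaving out single libraries moved the counts for the medium response to 2 to 4 in distal, 2 to 2 in mid and 4 to 5 in proximal organoids. The replicate block changed no other count of called members. The cause of these shifts was not tested. With 3 libraries per group, and the 5 low genes at 45 reads or fewer per library, the depth limits what can be seen of the receptors and Slc16a4, apart from the Ffar2 difference given in the report.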
